A study of Homo sapiens with 30 samples.

Results

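The 7 kallikrein genes KLK5, KLK6, KLK7, KLK8, KLK9, KLK10 and KLK11 lie side by side on chromosome 19 and are described here across 3 RNA-seq experiments in 5637 cells, a human bladder carcinoma line. They are 7 of 60612 genes in the knockout table and of 56303 in each of the other tables. The set was chosen by its levels in one RBPMS knockout group, KO2, in which KLK9 stood highest above its control WT2, so every value of KO2 against WT2 is a description and was not tested. The other 9 genes of the locus, KLK1 to KLK4, KLK12 to KLK15 and the pseudogene KLKP1, served for comparison.

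Kallikrein-related peptidases are secreted serine proteases made as inactive precursors and switched on by cleavage, often by one another. In stratified epithelia KLK5 and KLK7 cut the junction proteins that hold surface cells together, and the inhibitor encoded by SPINK5 restrains them. KLK6, KLK8 (neuropsin), KLK10 and KLK11 are also expressed in many epithelia and in carcinomas, while KLK9 is little characterised.

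The knockout experiment held 12 libraries of 5637 cells, 3 each of the controls WT1 and WT2 and of KO1 and KO2, both labelled RBPMS-KO. The study's text calls the controls sgCtrl in one place and wild-type cells in another. RBPMS is an RNA-binding protein that acts in splicing. The overexpression experiment had 3 libraries each of Vector, ANKRD10-1 and ANKRD10-2, in which either transcript of ANKRD10, an ankyrin repeat protein, was overexpressed. The knockdown experiment had 3 libraries each of siNC, a control siRNA, siANKRD10-1 and siANKRD10-2. The study's text says that the knockout lines were expanded from single clones and places part of the ANKRD10 work in RBPMS-knockout cells, whereas the labels name 5637 cells without a knockout, and each of these experiments had 1 control group. The labels do not say whether replicates came from separate cultures, and captions of the study refer to biologically independent experiments without naming these libraries. The p-values measure the spread between libraries, which may be technical. KO1 was compared with WT1 and KO2 with WT2 by their label numbers.

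Library totals ran from 44593108 to 69723937 counts in the knockout, 31736779 to 47493499 in the overexpression and 28511029 to 32784584 in the knockdown table. RBPMS was at 14.7 CPM (counts per 1000000 counts of the library) ± 0.597 (SD, n = 3) in KO1 against 41.0 ± 1.55 in WT1, and at 19.99 ± 1.1 in KO2 against 43.8 ± 0.948 in WT2, so both knockouts kept RBPMS reads. RBPMS averaged 5.28 CPM in Vector, 4.49 in ANKRD10-1 and 5.26 in ANKRD10-2, and 4.98 in siNC, 4.62 in siANKRD10-1 and 5.18 in siANKRD10-2. These tables were made separately and cannot be compared closely with the knockout table. Whether these cells carried a knockout was not tested. ANKRD10 was at 84.9 CPM in KO1 against 198 in WT1, and at 111 in KO2 against 194 in WT2. It was higher than in Vector in ANKRD10-1 (log2 fold change 0.67, SE 0.04) and in ANKRD10-2 (0.41, SE 0.05). It was lower than in siNC in siANKRD10-1 (-0.24, SE 0.06) and in siANKRD10-2 (-0.25, SE 0.06). Each was past an adjusted p of 0.05 in edgeR. These are totals of the gene and cannot show whether the intended transcript was changed. All 7 epithelial markers examined, such as EPCAM, KRT7 and KRT18, averaged above 1 CPM in every table and summed to between 2764 and 5435 CPM per library. Leukocyte markers summed to at most 1.39 CPM and endothelial markers to at most 3 CPM. Fibroblast markers summed to between 26.1 and 54.7 CPM.

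All 7 genes are transcribed from the minus strand and span chr19:50943303-51028039 (GRCh38), a stretch of 84.7 kb, in the order KLK5 to KLK11. Some of them share exon sequence with other annotated genes. For KLK9, 93.7% of exon bases lie in a readthrough gene on the same strand, AC011473.4, which also covers 40.1% of those of KLK8. The antisense gene AC011483.2 overlaps 12.2% of KLK5 and 20.3% of KLK6 exon bases, and AC011473.2 overlaps 6.23% of KLK10. The strand setting of the counting was not given in the sources used here, so counts of these genes can include or lose reads of their partners. In the knockout table the readthrough gene had 0 counts in every KO2 library and at most 5 in any other, and AC011483.2 had 10, 2 and 16 counts in KO2 and 0 elsewhere.

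RefSeq promoter windows were found for 6 of the 7 genes, some with several starts; KLK8 had no entry. The stretches below come from the RefSeq promoters on GRCh38.p14 and are shown for KLK5, KLK6 and KLK9, which stood far apart between KO1 and KO2. KLK10 stood far apart as well and is not shown. At most 35 bases of a KLK10 window precede every annotated exon on that strand. Each gives, 5′ to 3′ on the gene's strand, the part of the 200 bases before the RefSeq start that precedes every annotated exon on that strand, with capitals marking a GC box (GGGCGG, or CCGCCC on the other strand).
KLK5, chr19:50953094-50953238, minus strand: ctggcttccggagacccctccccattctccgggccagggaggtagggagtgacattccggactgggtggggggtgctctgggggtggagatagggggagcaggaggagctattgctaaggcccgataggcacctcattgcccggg
KLK6, chr19:50969674-50969791, minus strand: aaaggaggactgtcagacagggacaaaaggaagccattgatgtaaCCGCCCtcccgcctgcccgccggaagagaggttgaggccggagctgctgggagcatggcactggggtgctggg
KLK9, chr19:51009635-51009792, minus strand: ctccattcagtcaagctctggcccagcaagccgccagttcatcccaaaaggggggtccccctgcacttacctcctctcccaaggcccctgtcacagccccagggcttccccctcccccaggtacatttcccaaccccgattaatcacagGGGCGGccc
In the full 200-base windows the GC box was present in 6 of the 10 member windows and in 40.1% of the 35116 promoters of all genes. The 6 were windows of KLK6, KLK9 and KLK11 and the 3 windows of KLK7. The KLK7 windows overlap and hold some of the same GC boxes, and the KLK10 windows overlap too. The 10 are therefore not separate promoters. Neither the E-box CACGTG (5.49% of all promoters), nor the AP-1 motif TGANTCA (5.38%), nor TATAAA (8.59%) occurred in any of the 10, searching both strands. The member windows held a median of 7.5 CpG dinucleotides, against 9 over all promoters. KLK9 had 3 CpG and 60.5% G+C in its window, and KLK6 had 11 and 68%.

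In the knockout experiment the 2 knockout groups stood on opposite sides of their controls. The summed level of the 7 genes was 2.4 CPM ± 0.705 (SD, n = 3) in WT1 and 0.0502 ± 0.0869 in KO1. It was 2.83 ± 0.25 in WT2 and 73.6 ± 4.71 in KO2. In this sum the controls themselves overlapped, with 1.69 to 3.09 CPM in WT1 and 2.54 to 3.01 CPM in WT2. For KLK8 they did not, with 0.0788 to 0.226 CPM in WT1 and 0.301 to 0.458 CPM in WT2. In such bulk RNA, fewer cells of a kind and less RNA per cell cannot be told apart.

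**Figure D1:**
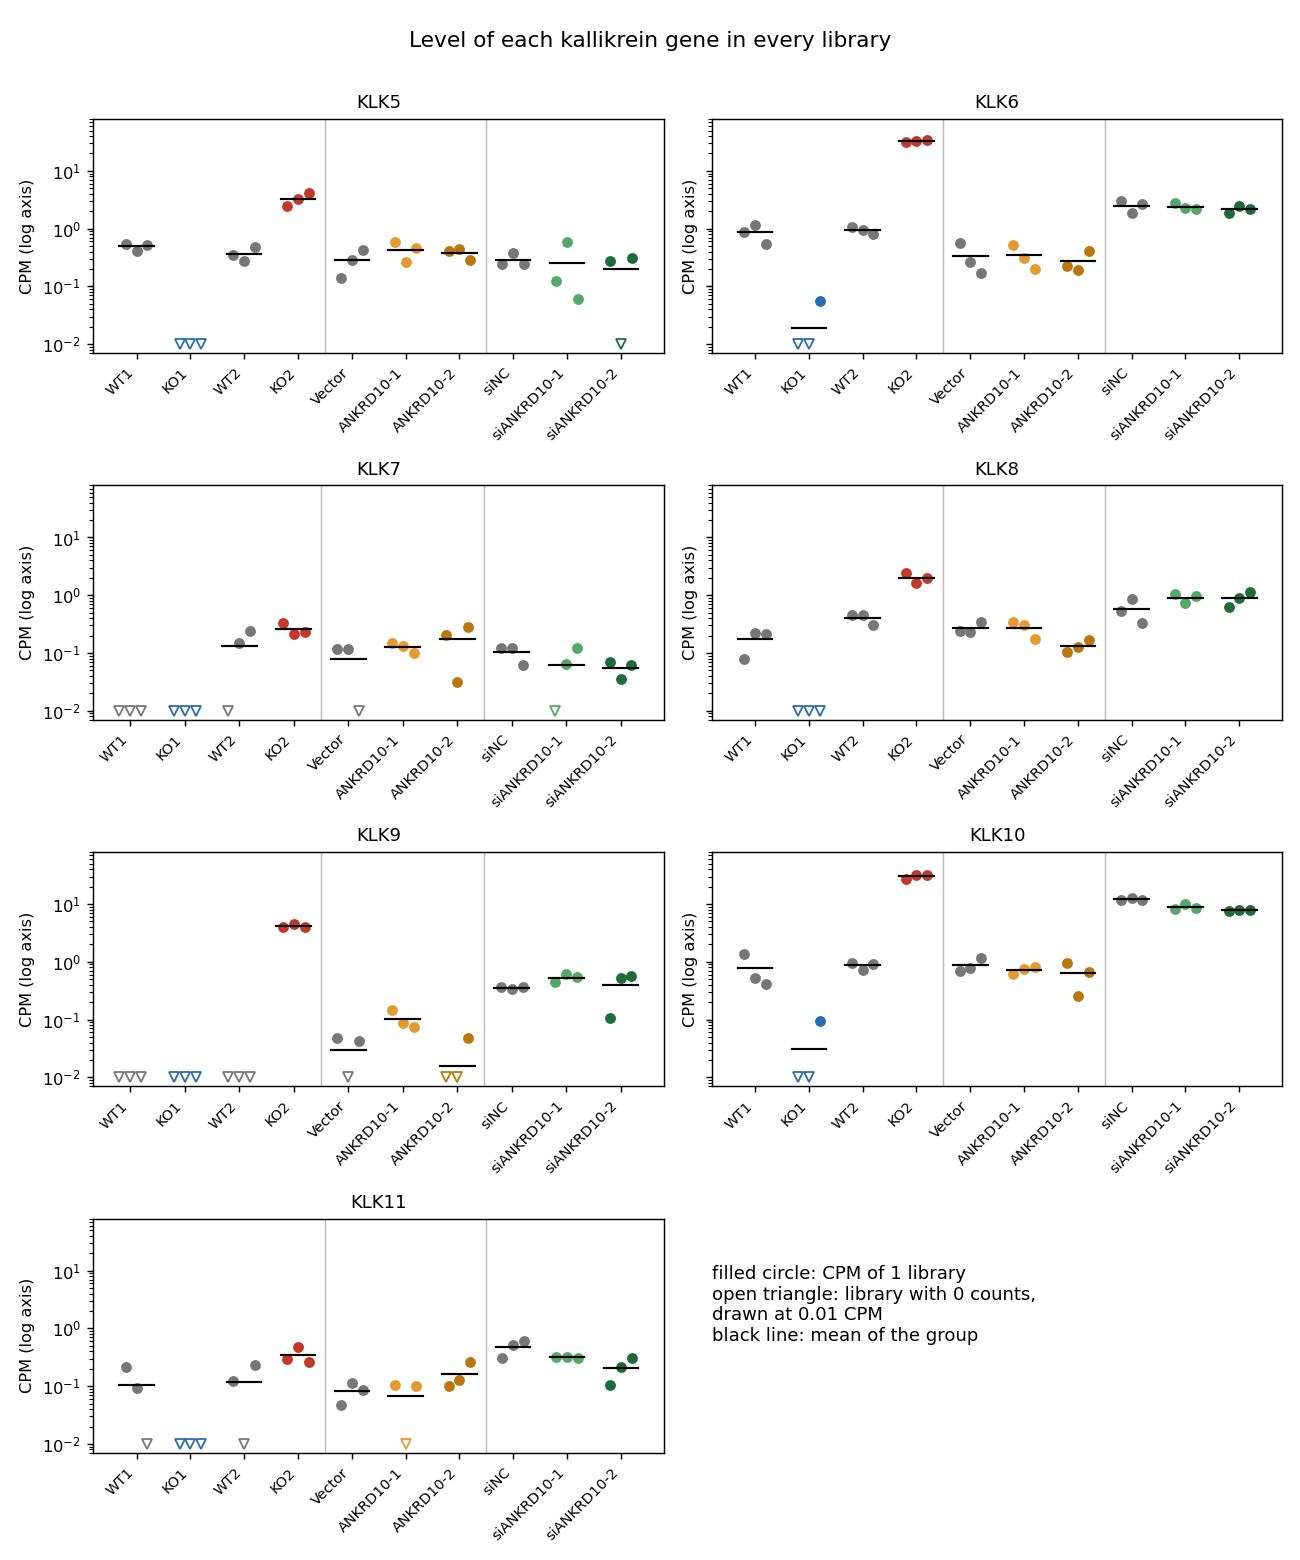
CPM of each of the 7 genes (log axis) in every library of the 10 groups. Circles are libraries, open triangles are libraries with 0 counts drawn at 0.01 CPM, lines are group means and grey vertical lines part the 3 experiments, whose tables were made separately. KO2 lies above WT2 in 6 of the 7 genes, and KO1 has 0 counts except for KLK6 and KLK10 in 1 library.

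KLK9 gave the sharpest picture in KO2. It had 230, 227 and 267 counts in the 3 KO2 libraries and 0 counts in all 6 WT and all 3 KO1 libraries. The KO2 level was 4.2 CPM ± 0.234 (SD, n = 3), at least 88-fold higher than in WT2 when 3 counts per library are taken as the floor.

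KLK6, a trypsin-like protease, had 1759, 1699 and 2283 counts in KO2 and 71, 51 and 57 in WT2. No library of one group came near the other. Its mean was 0.941 CPM ± 0.128 in WT2 and 33.1 CPM ± 1.83 in KO2, a log2 fold change of 5.18 (SE 0.11).
KLK10, first described as a gene expressed in normal mammary epithelium and lost in breast cancer lines, differed by nearly the same factor. It had 1561, 1606 and 2097 counts in KO2 and 62, 40 and 65 in WT2, a log2 fold change of 5.16 (SE 0.12).
KLK5, which can activate other kallikreins, had 137, 163 and 274 counts in KO2 and 23, 15 and 34 in WT2 (log2 fold change 3.17, SE 0.31). KLK8 had 137, 82 and 133 counts in KO2 and 30, 25 and 21 in WT2 (log2 fold change 2.37, SE 0.32).

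The 2 remaining genes were near the limit of detection. KLK11 had 17, 24 and 17 counts in KO2 and 8, 0 and 16 in WT2, so its groups stood apart by a single count before scaling. KLK7, the chymotrypsin-like partner of KLK5 in skin, had 19, 11 and 15 counts in KO2 and 0, 8 and 17 in WT2, and its groups overlapped. In all, 6 of the 7 members had every KO2 library above every WT2 library, where 20.5% of all 18267 genes kept by the filter on low counts did so, and since this contrast chose the set, nothing is read from that count.

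KO1 showed the reverse. KLK5 had 28, 22 and 35 counts in WT1 and 0 in each KO1 library, at least 8.82-fold lower in KO1. KLK6 had 45, 61 and 36 counts in WT1 and 0, 0 and 3 in KO1, a ratio of library-scaled summed counts of 0.022 with an exact 95% counting interval of 0.00448 to 0.0655. KLK10 had 69, 28 and 28 counts in WT1 and 0, 0 and 5 in KO1. Every KO1 library was below every WT1 library for these 3 genes.

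By edgeR's quasi-likelihood test with Benjamini-Hochberg adjustment over 17865 genes, KLK5, KLK6 and KLK10 were each called lower in KO1, and 18.2% of all genes tested were called lower. These members passed the filter on low counts only through WT1 and could hardly have come out otherwise. Nothing is therefore read from their number or from their p-values, which are not given. The fitted log2 fold change was -5.33 (SE 0.91) for KLK6 and -4.49 (SE 1.02) for KLK10. The KLK6 and KLK10 counts of KO1 came from 1 library, replicate 3. Without it both genes had 0 counts in KO1 and the fitted values were -8.58 and -8.41, which depend on the prior count and are no bounds. The other 4 members did not pass the filter. Of these, KLK8 had 4, 12 and 14 counts in WT1 and 0 in KO1, at least 3.04-fold lower, and KLK11 had 11, 5 and 0 in WT1 and 0 in KO1, at least 1.84-fold lower on the group means although 1 WT1 library was also at 0. KLK7 and KLK9 had 0 counts in both groups.

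The composition of the set differed between lines as well as its total. Scaled by exon length in kilobases as well (RPKM, CPM per kilobase), KLK6 made up 50.9% ± 0.342 (SD, n = 3) of the summed level in KO2, KLK10 23.9% ± 0.601 and KLK9 15.2% ± 1.03. In WT2, KLK6 made up 38.8% ± 5.73, KLK5 18.0% ± 4.36, KLK10 18.2% ± 1.25 and KLK8 17.7% ± 4.67, with no KLK9. In siNC, KLK10 led with 56.9% ± 2.75, ahead of KLK6 at 22.9% ± 5.47. On the same per-length scale the order of mean levels in KO2 was KLK6 (16.8 RPKM ± 0.925), KLK10 (7.89 ± 0.622), KLK9 (5.0 ± 0.279), KLK5 (1.98 ± 0.528), KLK8 (1.08 ± 0.217), KLK11 (0.111 ± 0.0364) and KLK7 (0.107 ± 0.0271). Neighbours in that order differed by more than their SDs except KLK11 and KLK7.

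**Figure D2:**
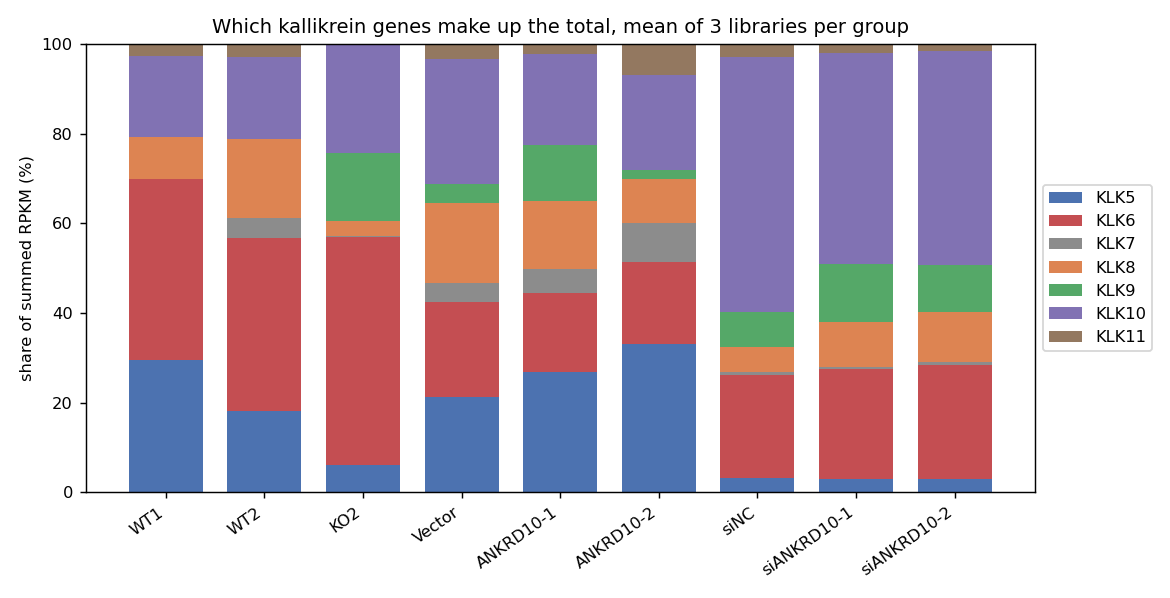
Share of each gene in the summed RPKM of the 7 genes (%, mean of 3 libraries per group), with KO1 left out because it holds 8 counts in all. KLK6 takes 50.9% in KO2 and KLK10 takes 56.9% in siNC. KLK9 is absent from WT1 and WT2.

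Around the locus the 2 knockout groups also differed. The other KLK genes stayed low: KLK2, KLK4, KLK12, KLK13, KLK15 and KLKP1 had 0 counts in all 12 knockout-table libraries, KLK3 had 5 counts in 1 KO2 library, KLK14 averaged at most 0.0685 CPM in any of these groups, and KLK1 averaged 0.354 CPM in WT2 and 0.395 CPM in KO2. In KO1 KLK1 had 8, 4 and 0 counts against 24, 7 and 9 in WT1, 0.0699 against 0.246 CPM, with every KO1 library below every WT1 library on the CPM scale, and it did not pass the filter for a test. Among the genes within 500 kb of the locus, KLK genes left out, 15 were tested in KO1 with a median log2 fold change of -0.50, and 1 was called higher and 9 lower. Across chromosome 19, these neighbours included and KLK genes left out, the KO1 median was -0.38 over 1194 genes. Of these, 108 were called higher and 550 lower. Over all 17635 genes placed on the annotation the KO1 median was -0.00154, with 3194 called higher and 3231 lower. In KO2 the medians were -0.03 over 16 genes near the locus and -0.00255 over 1226 genes of chromosome 19. The part of this chromosome-wide shift in the KLK values of KO1 was not tested.

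At 385 to 408 kb from the KLK9 start, 4 neighbouring genes also read 0 in all KO1 libraries. SIGLEC10-AS1 had 149, 143 and 238 counts in WT1, 0, 0 and 0 in KO1, and 168, 118 and 124 in KO2. SIGLEC10-AS2, SIGLEC10 and LIM2-AS1 gave the same picture, with KO2 means of 1.6, 0.711 and 0.53 CPM against WT2 means of 1.54, 0.993 and 0.54 CPM. SIGLEC10 and its antisense genes lie next to one another, and without a known strand setting their reads cannot be told apart. EMC10, a subunit of the membrane protein insertion complex of the endoplasmic reticulum, was at 44.9 CPM in KO1 against 17.9 in WT1 and at 45.5 in KO2 against 18.4 in WT2. SPIB, a transcription factor of lymphoid cells, was at 0.0639 against 0.481 CPM in KO1 and at 0.0642 against 0.694 CPM in KO2. These 6 genes were named after their values were seen.

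**Figure D3:**
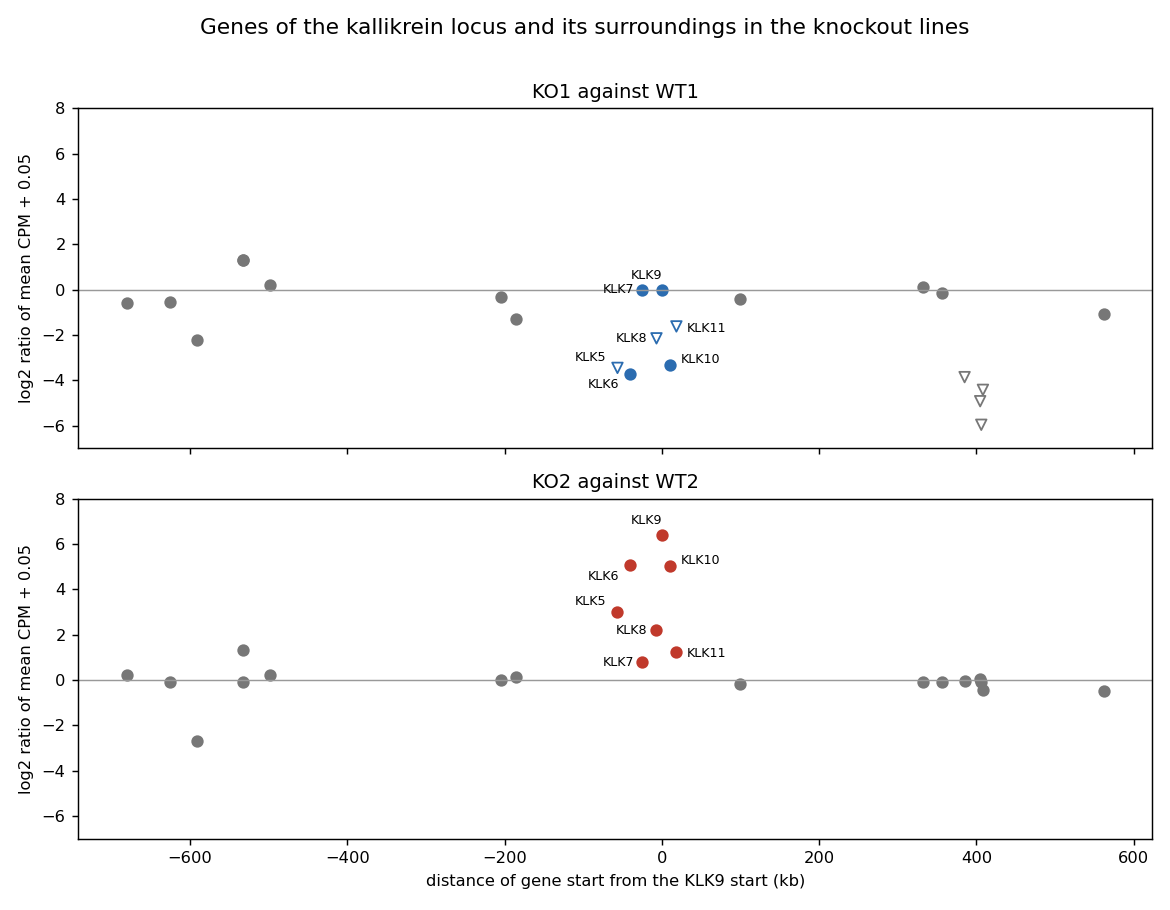
Log2 ratio of mean CPM + 0.05 in KO1 against WT1 (upper) and KO2 against WT2 (lower) for genes with a group mean of at least 0.25 CPM, by distance of the gene start from the KLK9 start in kb. Coloured points are the 7 members, grey points other genes, and open triangles genes with 0 counts in the knockout. The members lie below 0 or at it in KO1 and above 0 in KO2, and the 4 grey triangles to the right in KO1 have no counterpart in KO2.

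The genes whose levels ran most like those of KLK9 over the 12 knockout-table libraries, by Pearson r of log2(CPM + 1) among 19116 genes, were ADAMTS20 (r = 0.9996), GREM1 (0.996), TGFBR2 (0.993), MET (0.989) and DUSP4 (0.988). ADAMTS20, a secreted metalloprotease, averaged 0.221 CPM in KO2 and 0 in the other 3 groups, and GREM1, a BMP antagonist, 0.256 CPM in KO2 and 0 elsewhere. TGFBR2 averaged 120 CPM in KO2 and 64.5 to 67.2 CPM in the other groups. For KLK10 the nearest gene was KLK6 (0.996), followed by SAMD4A, THBS1, MET and DUSP4. Among the genes most like KLK10, KLK9 ranked 9th, KLK5 14th, KLK8 38th, KLK11 474th (r = 0.852) and KLK7 759th (r = 0.792). These r values rest on 12 libraries whose differences are mostly between KO2 and the rest, and they describe that pattern only.

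Genes acting with kallikreins were less uniform. In KO1, 3 of 8 inhibitor genes were tested and SPINK5 fell from 15.7 CPM ± 0.566 to 4.48 ± 0.816 (log2 fold change -1.77, SE 0.14, adjusted p = 4.84e-06). In KO2 SPINK5 stood at 3.46 CPM against 15.4 in WT2, so it was low in both knockouts. SERPINA5, the protein C inhibitor, averaged 0.324 CPM in KO2 and 0 in WT2. Of the cornified envelope and late keratinocyte genes, 8 of 10 were tested in KO1, with a median log2 fold change of -0.44 and 1 called higher and 3 lower. Of all 17865 genes tested in KO1, 3204 were called higher and 3250 lower. IVL, encoding involucrin, fell by 2.12 on the log2 scale (SE 0.22, adjusted p = 3.43e-05), and SPRR1B fell by 1.81 (SE 0.37, adjusted p = 0.0026). KRT1 went from 0.391 CPM to 0 counts and could pass the filter only through WT1. In KO2 this list had a median log2 difference of -0.01 over 7 genes, although CASP14, a caspase of the cornifying epidermis, was at 0.541 CPM against 7.51 in WT2. Among receptors and substrates, which include the protease-activated receptors and desmosomal cadherins, 4 of 9 genes were tested in KO1 and all 4 rose by less than 1 on the log2 scale. Of the activating membrane proteases 3 were tested in KO1 and none was called. Of 6 steroid and vitamin D receptors, which can regulate KLK genes, 3 were tested in KO1 and 1 was called lower.

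Single marker genes of other cell types also differed, those named here at low levels. PECAM1, an endothelial marker, was at 1.62 CPM in KO1 and 0.614 in WT1, and at 1.31 in KO2 and 0.495 in WT2. PDGFRA, a fibroblast marker, was at 0 in KO1 and 0.716 CPM in WT1. Of 3 fibroblast markers 2 were tested in KO1, and 2 were called lower, where 18.2% of all genes tested were called lower. A gene at 0 in KO1, such as PDGFRA, could pass the filter only through WT1. Nothing is read from this count. The leukocyte markers PTPRC and CD3E had 0 counts in KO2 and WT2. CD14, the other leukocyte marker examined, had a log2 fold change of -0.11 in KO2. Their part in the KLK values was not tested.

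In the ANKRD10 knockdown the set was expressed at a higher level than in the other controls, though tables made separately cannot be compared closely. The summed level was 16.3 CPM ± 0.609 (SD, n = 3) in siNC, 13.4 ± 0.994 in siANKRD10-1 and 11.7 ± 0.982 in siANKRD10-2. KLK10 carried most of it. It had 375, 418 and 381 counts in siNC, 263, 313 and 279 in siANKRD10-1, and 217, 224 and 254 in siANKRD10-2. Every knockdown library lay below every siNC library, at 8.95 CPM ± 0.927 and 7.77 ± 0.192 against 12.04 ± 0.773.

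KLK10 was the 1 member of 5 tested that passed in each knockdown, and it fell in both. On the log2 scale it differed from siNC by -0.43 (SE 0.10, adjusted p = 0.00926) in siANKRD10-1 and -0.66 (SE 0.10, adjusted p = 8.08e-06) in siANKRD10-2, both by edgeR. Of all genes tested, 10.6% were called in siANKRD10-1, with 5.52% of the tested genes lower, and 36.3% in siANKRD10-2, with 18.7% lower. These 2 comparisons share their siNC libraries. Without siANKRD10-1 replicate 1 the KLK10 call of siANKRD10-1 was lost (log2 fold change -0.37, adjusted p = 0.0649), and likewise without siNC replicate 2 (-0.38, adjusted p = 0.0664).

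Other members did not pass in the knockdown. KLK6 had log2 fold changes of -0.06 (SE 0.20) in siANKRD10-1 and -0.24 (SE 0.21) in siANKRD10-2. KLK8 leaned the other way, at 0.66 (SE 0.36) and 0.62 (SE 0.38). KLK11 had 10, 10 and 10 counts in siANKRD10-1 and 3, 6 and 10 in siANKRD10-2, and in siANKRD10-2 its log2 value fell short of the threshold at -1.20 (SE 0.51, adjusted p = 0.0617). Without siNC replicate 1 that adjusted p was 0.0428. KLK9, which no WT library of the knockout table held, was present in all 9 knockdown-table libraries: 12, 11 and 12 counts in siNC, 14, 19 and 18 in siANKRD10-1, and 3, 15 and 18 in siANKRD10-2. Its log2 fold changes were 0.57 (SE 0.40) and 0.13 (SE 0.50). KLK5 and KLK7 did not pass the filter.

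**Figure D4:**
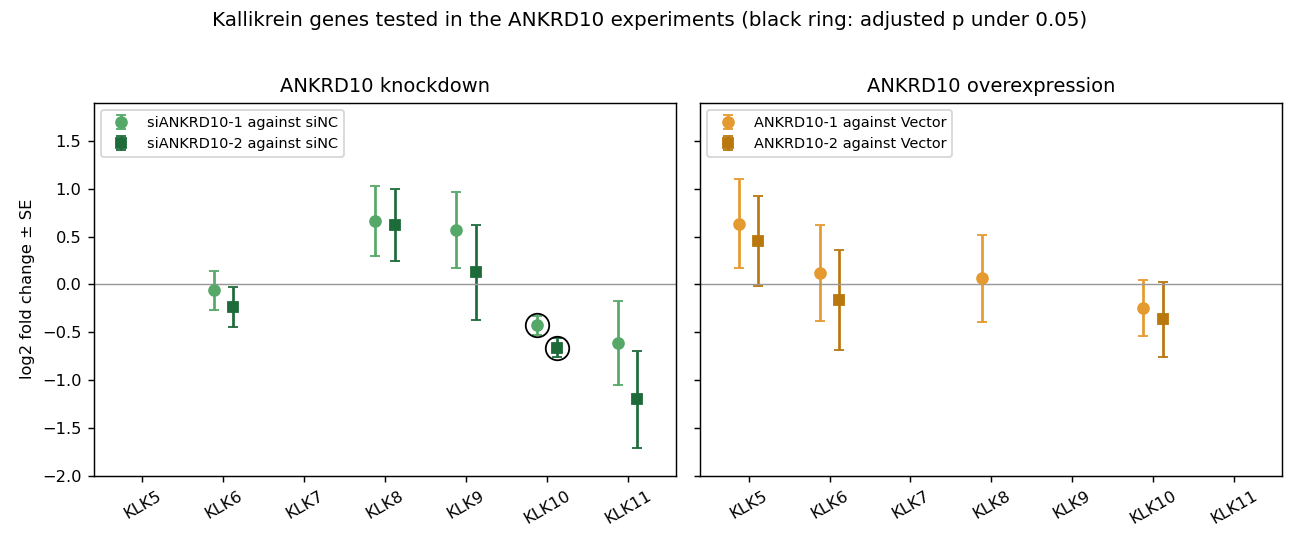
Log2 fold change ± SE (edgeR) of the members tested in the knockdown (left) and the overexpression (right). Black rings mark an adjusted p under 0.05. KLK10 is ringed in both knockdown comparisons at -0.43 and -0.66, and no member is ringed in the overexpression.

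Between the 2 siRNA groups 4 members were tested and 0 were called by edgeR (1 at an unadjusted p under 0.05, KLK10) or by DESeq2, while 37% of all genes were called. KLK10 differed by -0.23 on the log2 scale (SE 0.11, adjusted p = 0.105), siANKRD10-2 being lower. Related genes separated the 2 groups more. SPINK5 was at 28.8 CPM in siNC, 16.0 in siANKRD10-1 (log2 fold change -0.84, SE 0.08, adjusted p = 1.47e-06) and 47.7 in siANKRD10-2 (0.70, SE 0.07, adjusted p = 1.85e-08). It was 1.55 higher on the log2 scale in siANKRD10-2 than in siANKRD10-1 (SE 0.07, adjusted p = 6.41e-13). IVL was at 23.8 CPM in siNC, 48.1 in siANKRD10-1 and 16.5 in siANKRD10-2. FLG, encoding filaggrin, was at 2.46, 5.0 and 0.948 CPM in the same order, and both genes were called higher in siANKRD10-1 than in siNC and lower in siANKRD10-2 than in siANKRD10-1. Against siNC, 10.6% of all genes tested were called in siANKRD10-1 (5.52% lower) and 36.3% in siANKRD10-2 (18.7% lower). Of the 7 late keratinocyte genes tested, 2 were called higher and 0 lower in siANKRD10-1, and 0 higher and 5 lower in siANKRD10-2. CASP14 was lower in siANKRD10-2 than in siANKRD10-1 by 1.05 on the log2 scale. Of the 7 epithelial markers 4 were called lower in siANKRD10-1 and all 7 in siANKRD10-2, with KRT5 at 434 CPM against 888 in siNC. Of 8 inhibitor genes 3 were tested, with 0 higher and 1 lower in siANKRD10-1 and 1 higher and 1 lower in siANKRD10-2. Of 9 receptors and substrates 5 were tested, with 1 higher and 1 lower in siANKRD10-1 and 0 higher and 2 lower in siANKRD10-2. The part of these epithelial marker levels in the KLK10 values was not tested.

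In the overexpression experiment the 7 genes were measured at low counts. The summed level was 1.95 CPM ± 0.229 in Vector, 2.07 ± 0.346 in ANKRD10-1 and 1.77 ± 0.525 in ANKRD10-2. KLK10 had 29, 27 and 54 counts in Vector, 29, 34 and 32 in ANKRD10-1, and 38, 8 and 28 in ANKRD10-2, and the groups overlapped. KLK5 had 6, 10 and 20 counts in Vector, 28, 12 and 18 in ANKRD10-1, and 16, 14 and 12 in ANKRD10-2. KLK9 was at 2, 0 and 2 counts in Vector, 7, 4 and 3 in ANKRD10-1, and 0, 0 and 2 in ANKRD10-2.

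By edgeR 0 of 4 tested members were called in ANKRD10-1 against Vector, 0 of 3 in ANKRD10-2 against Vector and 0 of 3 in ANKRD10-2 against ANKRD10-1. None had an unadjusted p under 0.05, and DESeq2 also called 0 in each. Of all genes, 6.31%, 19.9% and 7.26% were called in these 3 comparisons. The log2 fold changes against Vector ran from -0.25 (KLK10, SE 0.29) to 0.64 (KLK5, SE 0.47) in ANKRD10-1 and from -0.36 (KLK10, SE 0.39) to 0.46 (KLK5, SE 0.47) in ANKRD10-2. A p that misses the threshold does not show that these levels were alike. Of the inhibitor genes 5 were tested, with none called in ANKRD10-1 and 1 higher and 3 lower in ANKRD10-2. Of receptors and substrates 5 were tested, with 1 lower in ANKRD10-1 and 2 higher in ANKRD10-2. CDSN, encoding corneodesmosin, a KLK substrate, fell by 1.51 on the log2 scale in ANKRD10-1 (SE 0.32, adjusted p = 0.00707). SPRR2A rose by 1.17 (SE 0.24, adjusted p = 0.0036) and SERPINA5 fell by 1.09 (SE 0.35, adjusted p = 0.0424) in ANKRD10-2. SPINK5 fell in ANKRD10-2 by 0.87 (SE 0.12, adjusted p = 0.000144), short of 1, and is given for comparison with the other experiments. ST14, the membrane protease matriptase, was called higher in ANKRD10-2 than in ANKRD10-1 (1.03, SE 0.31, adjusted p = 0.0473), with an SD of 44.3 CPM around a mean of 53.5 CPM in ANKRD10-2.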

How the data were processed

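RNA from 5637 cells was sequenced after a stranded mRNA library preparation. The authors deposited 3 tables of raw read counts per gene, made per the labels' processing notes with Trimmomatic 0.36, featureCounts from Subread 1.5.1 and GRCh38. The study's methods also name HISAT2, StringTie and DESeq2. The strand setting of the counting was not given in the sources used here. Gene positions were taken from GENCODE 29, whose coordinates equalled those of the overexpression table for all 16 genes of the locus. The coordinates were not compared with the other tables. Of counts from 1 to 19, 46.2% were even in the knockout table, 67.4% in the overexpression and 73.0% in the knockdown table, so small counts of the last 2 tables were more often even than odd, and the cause was not tested.

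Each comparison used the 2 groups concerned. Counts were scaled by TMM, filtered by filterByExpr and tested by edgeR 4.0.16 (quasi-likelihood, Benjamini-Hochberg over all genes, threshold 0.05) in R 4.3.3, with DESeq2 1.42.0 as an alternative. CPM used the library totals, RPKM the exon length. A floor of 3 counts per library gave the bounds against a group at 0. Standard errors were not given where a group was at 0. Intervals and floors cover counting error only. The fits were tested on simulated data. Members, gene lists and named genes (all 7 members, the other KLK genes, list genes past the test that differed by 1 or more on the log2 scale, and the 5 most alike genes) were chosen with earlier results of these data known. Genes outside this rule are said to be chosen after their values were seen or are given for comparison. Alternatives were RLE scaling, no filter, DESeq2, all groups in the fit, a replicate block, a fold limit, all 6 WT libraries as the control and leaving out each library.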

Additional observations from a re-analysis of the deposited data

Results flagged for a closer look

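KLK5, KLK6, KLK8 and KLK10 lay below WT1 in every KO1 library and above WT2 in every KO2 library, with log2 fold changes in KO2 of 3.17, 5.18, 2.37 and 5.16. For these genes the 2 RBPMS knockout groups lay on opposite sides of their controls. The difference between them was not tested, since the KO2 values chose the set. Of all genes kept by the filter, 20.5% had every KO2 library above every WT2 library. The share lying below WT1 in every KO1 library was not counted, and KLK8 was not tested in KO1. The KLK8 levels of WT1 and WT2 did not overlap either. Nothing is read from the number of members.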

How the results depend on the processing

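In KO1 the number of members called is no measure of stability, since they passed the filter only through WT1. In KO2, 6 members did not overlap WT2, and 6 to 7 did not when a library was left out. In the knockdown, leaving out a library gave 0 to 1 called in siANKRD10-1 and 1 to 2 in siANKRD10-2, and requiring a difference of 1 or more on the log2 scale left 0 in each. The overexpression and siANKRD10-2 against siANKRD10-1 stayed at 0 called under every alternative. With all 6 WT libraries as the control, the log2 fold change of KLK8 in KO2 was 2.84.

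Of 345 alternative log2 fold changes, 321 were rated as unchanged. Outside KO2 this meant the same direction and side of the threshold. In KO2, which has no threshold, it meant the same direction and a shift below the spread (SD) between libraries. The total includes KLK6 and KLK10 of KO1, which could hardly have come out otherwise. The 20 that changed sign each came from leaving out a library, and none was a called value. The ranges in ANKRD10-1 against Vector were -0.337 to 0.767 for KLK6, -0.122 to 0.29 for KLK8 and -0.400 to 0.0186 for KLK10. In ANKRD10-2 against Vector KLK6 ranged from -0.562 to 0.484. In ANKRD10-2 against ANKRD10-1 the ranges were -0.447 to 0.131 for KLK5, -0.684 to 0.175 for KLK6 and -0.551 to 0.224 for KLK10. In the knockdown they were -0.238 to 0.0676 for KLK6 in siANKRD10-1, -0.209 to 0.567 for KLK9 in siANKRD10-2, and -0.266 to 0.16 for KLK8 and -0.777 to 0.00216 for KLK9 between the siRNA groups. The cause was not tested.

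Replicate numbers were shared, and whether they pair the libraries is not settled. Same-numbered deviations correlated from -0.122 to 0.239, and no comparison had every pair over 0.1. In ANKRD10-2 against Vector they were 0.0911, 0.183 and 0.214. Over all genes, a replicate block raised the calls there from 4017 to 4766, and in siANKRD10-1 against siNC from 1991 to 2778. In KO1 against WT1 it lowered them from 6454 to 6082. With the replicate block 3 members were called in KO1, 1 in siANKRD10-1, 1 in siANKRD10-2 and 0 in the other comparisons, as without it.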
